A study of Mus musculus with 9 samples.

Results

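Hesx1 (identifier ENSMUSG00000040726 in the deposited table) is a single gene, 1 of the 54838 in that table, followed here over all 9 mouse libraries of the study. It was chosen by its counts in these same 9 libraries, nearly all of which lay in the group labelled c-fos. Its own levels are therefore given as a description, with no test. The study took RNA from laser-captured cells of paraformaldehyde-fixed frozen tissue and made Smart-3SEQ libraries, which read the 3′ ends of polyadenylated transcripts. The 9 libraries form 3 groups of 3, labelled mCherry (a red fluorescent protein), c-fos (the product of the activity-induced gene Fos) and overlap. The design text speaks of cells carrying the label CRD, the label His, or both, without saying which of these is mCherry and which is c-fos. The labels give no strain, age, sex, treatment, way of expressing mCherry or number of animals, and they do not say whether cells of several animals were pooled. They do not say either whether c-fos cells were checked for lack of mCherry. P-values measure the spread between these samples only, which may be technical, and they may be too small where samples share an animal.

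Hesx1 encodes a paired-like homeodomain protein that represses transcription by recruiting corepressors of the TLE and NCoR families. In the mouse embryo it is expressed in the anterior neural plate and then in Rathke's pouch, the origin of the anterior pituitary. Loss of the mouse gene disturbs the forebrain, eyes and pituitary, and HESX1 mutations in humans cause pituitary hormone deficiency and septo-optic dysplasia. It is not a gene known for its use in the adult amygdala, the region named in the title of the series.

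Hesx1 lies on mouse chromosome 14. The GENCODE M21 annotation gives it 2 transcripts, of 4 exons (1141 nucleotides) and 5 exons (983 nucleotides). Their starts are 5946 bp apart and their 3′ ends 4 bp apart, so counts of 3′ ends cannot tell them apart. In that annotation 0 other genes overlap Hesx1 on either strand. Its nearest neighbours are Appl1, 23183 bp upstream, and Il17rd, 36611 bp downstream. The 250 bases before the start of the 4-exon transcript are shown because they are the promoter window given for Hesx1 in the RefSeq table. This start lies inside the annotated gene, after that of the 5-exon transcript, whose own upstream sequence is not shown. They come from RefSeq (GRCm38.p6, chr14:27000112-27000361, plus strand), and capitals mark each TAAT or its reverse complement ATTA, the core that homeodomain proteins bind.
Hesx1 promoter: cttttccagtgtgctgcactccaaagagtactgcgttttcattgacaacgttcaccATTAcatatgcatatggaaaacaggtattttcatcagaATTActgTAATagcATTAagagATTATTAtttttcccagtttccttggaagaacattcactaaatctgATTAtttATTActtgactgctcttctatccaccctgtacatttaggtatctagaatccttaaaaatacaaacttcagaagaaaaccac
The window holds TAAT or ATTA at 8 positions, of which a pair overlap each other, and 1.12% of 32851 mouse promoter windows of the same length hold at least as many. It also holds 1 paired-like palindrome (TAAT and ATTA set 3 bases apart), the site type to which paired-like homeodomain dimers bind, starting at position -149 from the transcript start. That palindrome occurs in 0.463% of the windows, and its arms are counted among the TAAT cores. The window is rich in A and T, with 34% G or C against a median of 52.4%. On both strands it holds 0 matches to the AP-1 site TGANTCA (in 6.75% of windows), the CRE TGACGTCA (1.55%) and the EGR site GCGNGGGCG (4.70%). E-boxes (CANNTG) occur 2 times, and 66.2% of windows hold at least 1. These are matches of letters and say nothing of binding in these cells.

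Total counts ran from 90091 in overlap 1 to 429317 in mCherry 2, and 7959 genes passed the filter on low counts. The labels name spermatocytes as the cell type and a testicular biopsy as their source, while the title names the amygdala. Of 10 spermatocyte markers, 8 had counts and 2 (Sycp1 and Pgk2) were at 0 in all libraries, and their summed level was 113 to 161 CPM in c-fos, 9.44 to 109 in mCherry and 101 to 275 in overlap. All 6 markers of glutamatergic forebrain neurons had counts, and Camk2a, a neuronal kinase gene, was counted in every library. The libraries mCherry 3 and overlap 1 stood apart, with summed insulin transcripts (Ins1 and Ins2, close paralogs whose reads may be shared) of 15211 and 23149 CPM, where the remaining 7 libraries had 286 to 1111. CPM here are counts relative to the TMM-scaled total of the tested genes. Both libraries held 0 Hesx1 counts. Without them, the remaining mCherry libraries still held 0 Hesx1 counts and the remaining overlap libraries 1.

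Hesx1 was counted 46, 85 and 87 times in c-fos 1, 2 and 3. It was counted 0 times in each mCherry library. In overlap 1, 2 and 3 it was counted 0, 1 and 0 times. Every c-fos library was thus high, every other library was at or next to 0, and the c-fos libraries overlapped with no other library. Of all 219 Hesx1 counts, 99.5% lay in the c-fos libraries.

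On the TMM-scaled CPM scale, which allows for depth, the Hesx1 level was 448 in c-fos 1, 318 in c-fos 2 and 326 in c-fos 3. The 95% Poisson intervals of these levels were 328 to 597, 254 to 393 and 261 to 403 CPM, and they overlap each other. Intervals and floors cover counting error only, since reads need not be independent molecules. The c-fos mean was 364 ± 72.7 CPM (SD, n = 3), the mCherry mean 0, and the overlap mean 1.54 ± 2.66 CPM (SD, n = 3). The level in mCherry and that in overlap, neighbours at the low end of the order, did not differ beyond their spread.

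**Figure D1:**
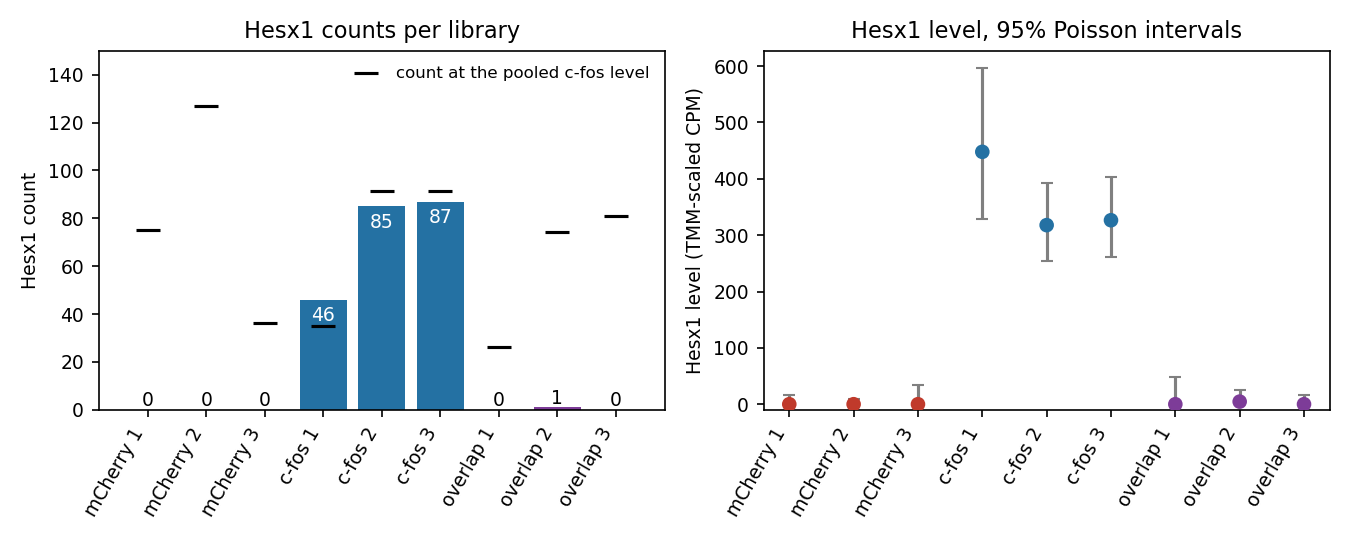
Left, Hesx1 counts in each library (bars), with black dashes for the count each library would hold at the pooled c-fos level of 342 CPM. Right, the Hesx1 level in TMM-scaled CPM with 95% Poisson intervals: the 3 c-fos libraries lie between 318 and 448 CPM and the 6 others between 0 and 4.61 CPM.

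Depth alone sets how low a level could have been seen. At the pooled c-fos level of 342 CPM, mCherry 1, 2 and 3 would have held 75.1, 127 and 36.3 Hesx1 counts, and overlap 1, 2 and 3 would have held 26.2, 74.2 and 80.8. A floor of 3 counts is used for a count of 0, somewhat below the upper end of the 2-sided 95% Poisson interval drawn in the plot of Hesx1 levels. This floor is 8.08 CPM in mCherry 2, the deepest library, and 39.2 CPM in overlap 1, the shallowest. Set once over the summed mCherry libraries, it puts the pooled c-fos level at 79.5 times the floor. This is no lower bound, since the counting error of c-fos and the spread between libraries are left out. Against overlap, where 1 count was seen, the ratio was 181, with an exact binomial 95% interval of 32.2 to 7190. In these bulk samples fewer cells with Hesx1 and less Hesx1 RNA per cell cannot be told apart.

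Within the c-fos libraries Hesx1 was among the more abundant genes. By counts of 3′ ends, which this method does not scale with transcript length, it ranked 204 of 13299 detected genes in c-fos 1, 443 of 16019 in c-fos 2 and 438 of 15255 in c-fos 3. Of the detected genes, 98.4%, 97.2% and 97.1% had fewer counts than Hesx1 in these libraries.

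The share of a gene's summed CPM that lay in the c-fos libraries was 99.6% for Hesx1 and had a median of 31.7% over the 7959 tested genes. Hesx1 and the vomeronasal receptor gene Vmn2r27 were the 2 tested genes above 95%. Of the 2127 tested genes with a mean level at least that of Hesx1 (122 CPM over the 9 libraries), the next highest c-fos share was 69.3%, for Fn1, the matrix protein fibronectin. Below that level some shares were higher than that of Fn1, such as 79.1% for Eef1a1, a translation elongation factor gene. For the other groups the highest shares among the 2127 genes were near that of Hesx1, but there a single library carried them. In mCherry the highest share was 95.7%, for Fbxw28, with 88.9% of its summed CPM in 1 library. In overlap it was 96.3%, for Nf2, the tumour suppressor merlin, with 94.6% in 1 library. For Hesx1 the highest library held 40.8%. Hesx1 was chosen by these same counts, and its own mean sets the cut. These shares therefore describe the table and do not test Hesx1.

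**Figure D2:**
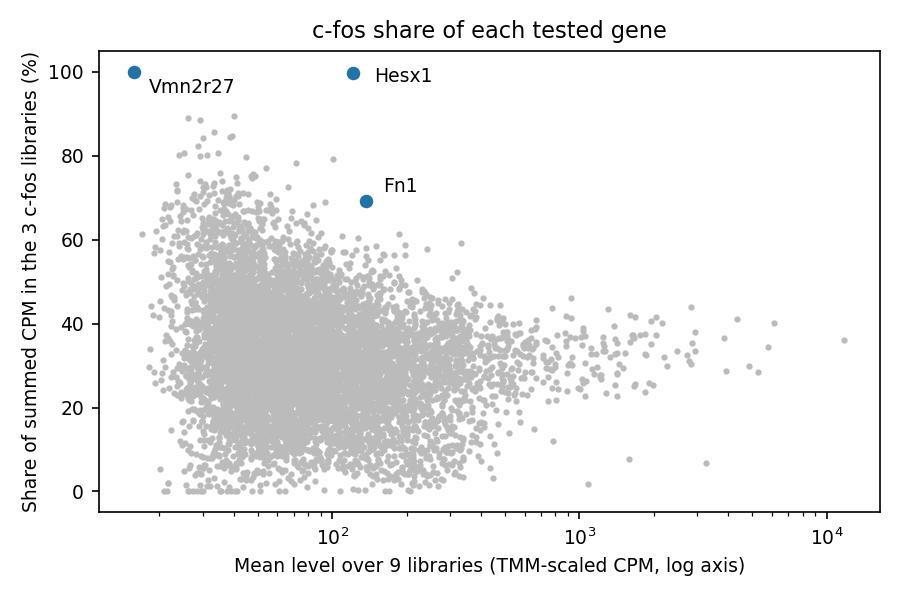
Share of each tested gene's summed CPM found in the 3 c-fos libraries (vertical axis, %) against its mean level over all 9 libraries (horizontal log axis, TMM-scaled CPM). Hesx1 stands at 99.6% and 122 CPM. Among genes at or above that mean level Fn1 is next, at 69.3%. Some genes of lower level have higher shares than Fn1, such as Eef1a1 at 79.1%. Vmn2r27, at 100%, lies among the lowest genes.

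A count of at least 46 in each library of a group, the Hesx1 count in c-fos 1, together with 0 counts in the 6 other libraries, was met by 0 genes in any of the 3 groups, Hesx1 included because of its 1 count in overlap 2. Both limits come from the Hesx1 counts themselves, so these numbers describe the table and do not test Hesx1. With at least 10 counts in each library of a group and 0 elsewhere the number was again 0 for each group.

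Library measures differed between the groups too. At an equal depth of 90091 counts, the expected number of detected genes was 12371 to 13221 in the c-fos libraries, 9329 to 12195 in mCherry and 9621 to 11972 in overlap, so every c-fos library was above every other. Summed markers of GABAergic neurons (6 genes, of which Vip was at 0 in all libraries) stood at 198 to 370 CPM in c-fos, 47.2 to 86.6 in mCherry and 73.8 to 366 in overlap. Much of the c-fos sum came from Slc32a1, the vesicular GABA transporter gene (167 ± 108 CPM, SD, n = 3), while Pvalb, of parvalbumin interneurons, had 1 count in c-fos against 29 in overlap and 7 in mCherry. Those of glutamatergic neurons (6 genes, each with counts) stood at 302 to 834, 1085 to 1449 and 222 to 877 CPM in c-fos, mCherry and overlap. For both neuron lists c-fos was apart from mCherry and overlapped with the overlap group, unlike Hesx1. The part of these differences in the Hesx1 levels was not tested.

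The c-fos and overlap groups both carry the c-fos label, and activity-induced genes were compared beside Hesx1. Fos, whose product names the label and which is therefore no finding, stood at 399, 318 and 338 CPM in the c-fos libraries and at 641, 360 and 259 CPM in the overlap libraries. It stood at 187, 64.6 and 56.6 CPM in mCherry 1, 2 and 3. Fos in overlap thus covered the range of Fos in c-fos, while Hesx1 was at 0 or 1 count in overlap. Egr1, an activity-induced zinc finger transcription factor, stood at 389, 766 and 615 CPM in c-fos, 183, 300 and 428 CPM in overlap and 94.3 to 109 CPM in mCherry. Its log2 difference between c-fos and overlap was 0.95 ± 0.55 (SE, adjusted p = 0.957 in edgeR). Npas4, an activity-induced factor of neurons, stood at 185, 89.7 and 221 CPM in c-fos and 445, 78.4 and 174 CPM in overlap, again overlapping. Arc, a synaptic effector gene, stood at 9.74, 172 and 176 CPM in c-fos and 392, 332 and 292 CPM in overlap, every overlap library above every c-fos library, with a log2 difference of -1.47 ± 0.84 (adjusted p = 0.957 in edgeR). For other listed activity-induced genes the order was the reverse. Junb, an AP-1 subunit, stood at 224, 250 and 266 CPM in c-fos and 170.0, 148 and 208 CPM in overlap. Nr4a1, a nuclear receptor below the filter, stood at 38.9, 56.1 and 56.3 CPM in c-fos and 0, 23.1 and 12.7 CPM in overlap. For both, the lowest c-fos value exceeded the highest overlap value, as it did for 8.61% of all tested genes. The Junb log2 difference between c-fos and overlap was 0.50 ± 0.76 (SE, adjusted p = 0.988 in edgeR), and Nr4a1 was not tested. Fosb overlapped, with means of 257 ± 49.5 CPM in c-fos and 157 ± 113 CPM in overlap (SD, n = 3).

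**Figure D3:**
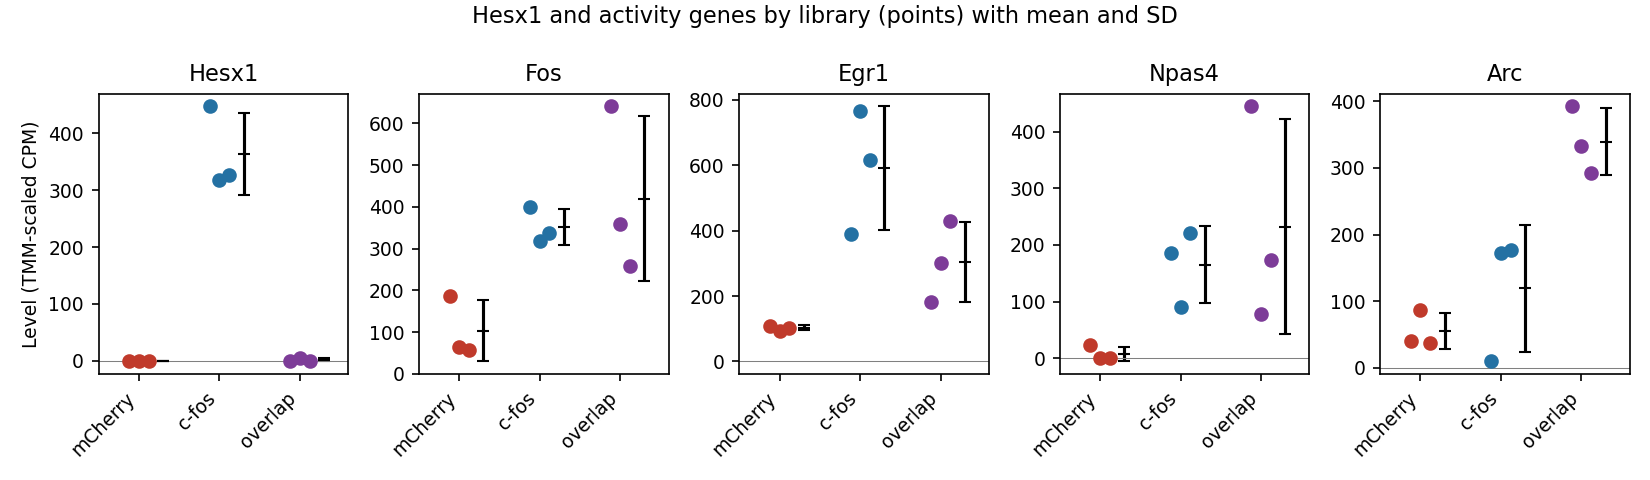
Levels (TMM-scaled CPM, each panel with its own linear axis) of Hesx1 and 4 activity-induced genes, with 1 point per library and the mean ± SD of 3 libraries beside them. Hesx1 is high in c-fos only among the groups, whereas Fos and Npas4 in overlap cover their c-fos values and Arc is highest in overlap.

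Genes related to Hesx1 by function, family or position, together with the activity-induced genes above, were followed for context. They made 124 names, of which 122 were in the table, 92 had at least 1 count and 42 passed the filter, 6 of these being activity-induced genes. In edgeR's quasi-likelihood test over all 7959 genes with Benjamini-Hochberg adjustment, 0 of the 42 passed for c-fos against mCherry, where 0% of all genes did. Nor did any pass for c-fos against overlap (0 of 42, with 0% of all genes) or for overlap against mCherry (0 of 42, with 0.0251% of all genes). At an unadjusted p under 0.05 the numbers were 9, 3 and 9 of the 42, against 632, 406 and 1114 of all 7959 genes. The 6 activity-induced genes made 5, 0 and 4 of these 9, 3 and 9. DESeq2 called 1, 0 and 4 of the 42, which were Egr1 in the first contrast and Fos, Arc, Npas4 and Pou1f1 in the last. Over all genes DESeq2 called 0.0377%, 0.0754% and 2.36% in the same contrasts, and of its 5 calls among the 42 all but Pou1f1 were activity-induced genes. The median log2 difference of the 42 was 0.33, 0.13 and 0.61 in the 3 contrasts, against -0.01, -0.02 and -0.05 over all genes. For the 6 activity-induced genes among the 42 it was 1.92, 0.12 and 1.79. Every c-fos library lay above every mCherry library for 7 of the 42, of which 5 were activity-induced genes, while 9.02% of all tested genes did so. The others were Lhx2 and Pou1f1. For c-fos against overlap it was 4 of the 42, Ncor1, Sin3a and Junb among them, with 8.61% of all genes. For overlap against mCherry it was 8 of the 42, with 6.37% of all genes. Of these 8, Fos, Junb, Egr1, Npas4 and Arc were activity-induced genes, and the rest were Pou1f1, Pitx1 and Dnah12. Any 2 of these contrasts share the libraries of 1 group, so they are not independent.

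The corepressors through which the Hesx1 protein acts had a summed level that was lowest in overlap. It stood at 1295 to 1684 CPM in c-fos, 1047 to 1769 in mCherry and 775 to 890.0 in overlap. Of the 11 listed genes found, all had counts in c-fos and overlap and 10 in mCherry, where the deacetylase gene Hdac1 was at 0. It had 1, 2 and 23 counts in c-fos and 1, 1 and 4 in overlap. Of the list 7 were tested, with 5 positive and 2 negative log2 differences for c-fos against mCherry and 6 and 1 for c-fos against overlap. Over all tested genes the numbers were 3954 and 4005 in the first contrast and 3917 and 4042 in the second. Tle1, the TLE corepressor that binds Hesx1, was below the filter, with 4, 11 and 10 counts in c-fos, 12, 12 and 3 in mCherry and 0, 1 and 0 in overlap. Ncor1, the nuclear receptor corepressor, stood at 263, 381 and 281 CPM in c-fos, 365, 210 and 245 in mCherry and 13.1, 203 and 246 in overlap. Sin3a, a scaffold of histone deacetylase complexes, stood at 428, 370 and 289 CPM in c-fos, 388, 353 and 217 in mCherry and 131, 221 and 25.4 in overlap. Every c-fos library was above every overlap library for Ncor1, Sin3a and Tle1, and c-fos and mCherry overlapped for each of them. The Sin3a log2 difference between c-fos and overlap was 1.52 ± 0.72 (adjusted p = 0.944 in edgeR), and that of Ncor1 was 0.96 ± 0.76 (adjusted p = 0.982). Aes, a short TLE family member, stood at 1.21 ± 0.89 and Tle2 at 1.68 ± 1.58 in that contrast (adjusted p = 0.982 in edgeR for both).

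Factors that act upstream of Hesx1 in the mouse embryo varied in how they lay across the libraries, and 4 of the 8 listed were tested. Otx2, a homeodomain factor of the anterior head, stood at 68.2, 56.1 and 7.51 CPM in c-fos, 77.5, 56.6 and 9.44 in mCherry and 144, 13.8 and 4.24 in overlap. Lhx1, a LIM homeodomain factor needed for head formation, had 2, 11 and 0 counts in c-fos, 3, 21 and 1 in mCherry and 20, 9 and 1 in overlap. The 20 were in overlap 1, a library high in insulin transcripts. Lhx3, its relative in Rathke's pouch, was at 0 counts in all libraries. Six3, a regulator of the anterior forebrain, stood at 224, 63.6 and 128 CPM in c-fos, 13.7, 151 and 47.2 in mCherry and 26.2, 83.0 and 80.5 in overlap. Its values overlapped between all groups, with a log2 difference of 0.91 ± 0.96 for c-fos against mCherry (adjusted p = 0.934 in edgeR). Lhx2, which patterns the forebrain and eye, stood at 107, 37.4 and 67.5 CPM in c-fos, 0, 13.5 and 9.44 in mCherry and 0, 64.6 and 17.0 in overlap. Its log2 difference was 3.07 ± 1.56 for c-fos against mCherry (adjusted p = 0.666 in edgeR) and 1.26 ± 1.43 for c-fos against overlap (0.982). Below the filter, Sox2, a factor of neural progenitors, stood at 38.9, 26.2 and 22.5 CPM in c-fos, 22.8, 2.69 and 18.9 in mCherry and 0, 4.61 and 8.48 in overlap. Its c-fos values lay above those in overlap and just overlapped with mCherry, on at most 7 counts a library. Its relative Sox3 had 5 counts, all in c-fos 1.

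**Figure D4:**
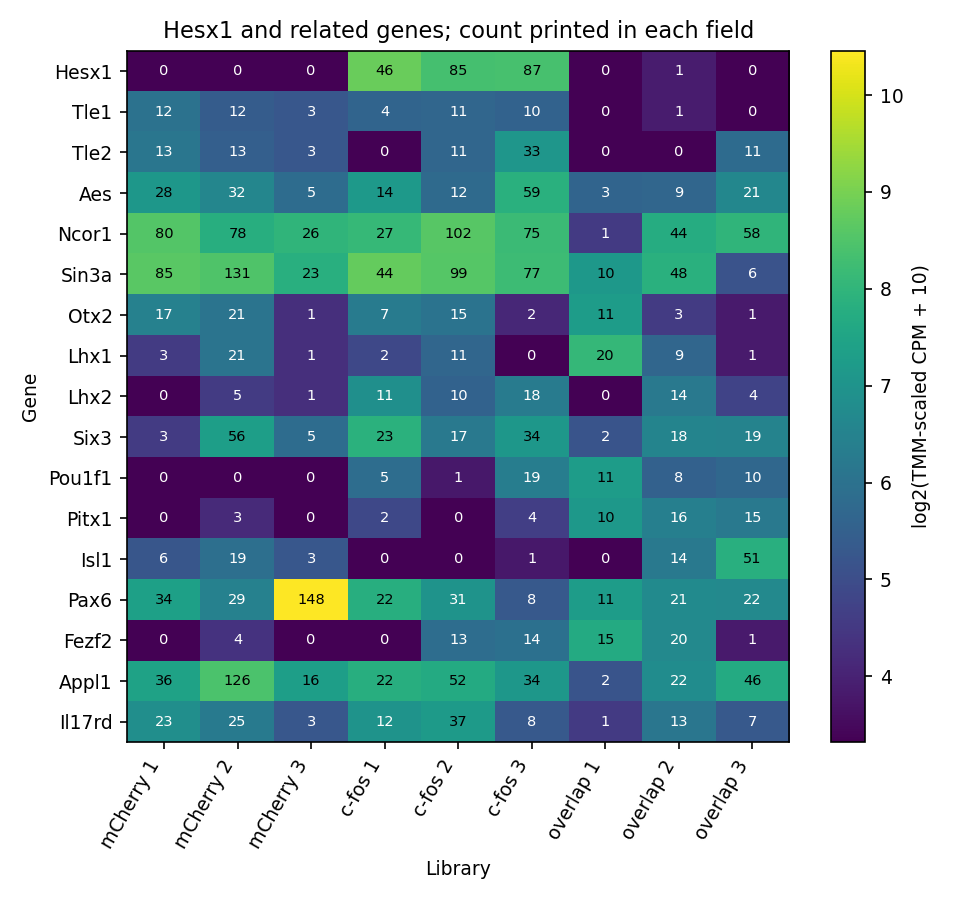
Hesx1 and 16 related or neighbouring genes (rows) in the 9 libraries (columns), coloured by log2(TMM-scaled CPM + 10), with the count printed in each field. Hesx1 has 46, 85 and 87 counts in c-fos and at most 1 elsewhere, while most other rows have counts in every group.

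Genes of the pituitary lineage, in which Hesx1 is best known, varied in how they lay across the libraries. Of the 20 listed, 11 had at least 1 count in c-fos, 8 in mCherry and 9 in overlap; 6 were at 0 in every library (Lhx3, Six6, Tshb, Lhb, Fshb and Ghrhr), and 4 passed the filter. Pou1f1, a factor needed by several hormone cell types of the pituitary, had 5, 1 and 19 counts in c-fos, 11, 8 and 10 in overlap and 0 in each mCherry library. Its values in c-fos and overlap overlapped, unlike those of Hesx1, and its adjusted p in edgeR was 0.567 for c-fos against mCherry and 0.218 for overlap against mCherry. Pitx1, a paired-like factor of the pituitary primordium, was highest in overlap, with 130.8, 73.8 and 63.6 CPM against 19.5, 0 and 15.0 in c-fos (log2 difference -2.97 ± 1.57 for c-fos against overlap, adjusted p = 0.944 in edgeR). Isl1, a LIM homeodomain factor of pituitary and motor neurons, had 0, 0 and 1 counts in c-fos, 6, 19 and 3 in mCherry and 0, 14 and 51 in overlap. Its log2 difference was -4.12 ± 1.69 for c-fos against mCherry (adjusted p = 0.570 in edgeR) and -5.52 ± 1.73 for c-fos against overlap (0.808). Gh, growth hormone, was counted in every library, with 147 counts in c-fos, 261 in mCherry and 197 in overlap. Below the filter, Prl, the prolactin gene, had 2, 11 and 0 counts in c-fos and 0 in the 6 other libraries. Lhx4, a LIM homeodomain factor of the pituitary primordium, had 1, 9 and 12 counts in c-fos, 1, 0 and 0 in mCherry and 0, 5 and 3 in overlap. By CPM its c-fos values were above those in mCherry and overlapped with the overlap group. Summed over the list, these genes stood at 292 to 437 CPM in c-fos, 324 to 574 in mCherry and 712 to 719 in overlap. By this sum the c-fos libraries were not the high ones. Gh held 605 of the 943 counts of the list, so the sum says little of the other genes.

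Other homeobox genes of the paired-like class were at low counts. Of the 27 found in the table, 22 had at least 1 count and 8 were tested. Their log2 differences were 7 positive and 1 negative for c-fos against mCherry and 3 and 5 for c-fos against overlap. Over all tested genes the signs were split nearly evenly in both contrasts. Alx1, a factor of craniofacial mesenchyme, had 2, 38 and 16 counts in c-fos, 0, 17 and 4 in mCherry and 0, 0 and 9 in overlap. Its log2 difference between c-fos and overlap was 2.35 ± 1.62 (adjusted p = 0.959 in edgeR). Among the forebrain patterning genes, 10 of 26 were at 0 in every library and 6 were tested. Fezf2, a factor of subcortical projection neurons, had 0, 13 and 14 counts in c-fos and 15, 20 and 1 in overlap. Pax6, a paired-box factor of eye and forebrain, had 148 of its counts in mCherry 3, a library high in insulin transcripts, and its log2 difference for c-fos against mCherry was -2.19 ± 0.97 (adjusted p = 0.590 in edgeR). Without mCherry 3 the Pax6, c-fos vs mCherry, difference was -0.020.

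Hesx1 restrains Wnt signalling in the mouse forebrain primordium, and 9 of 15 listed genes of that pathway were tested. For c-fos against mCherry, 3954 of all tested genes had positive and 4005 negative log2 differences. In the Wnt list 1 was positive and 8 were negative. Of these, Tcf7l1, a repressor that holds Wnt targets off, had 144 of its 148 mCherry counts in mCherry 3, and 0, 0 and 10 counts in c-fos. Its log2 difference for c-fos against mCherry was -4.95 ± 1.88 (adjusted p = 0.567 in edgeR) and turned to 0.88 without mCherry 3. That of its relative Tcf7l2, -2.01 ± 1.09 (adjusted p = 0.706 in edgeR), turned to 0.98. Wnt8b, a ligand of the medial forebrain, had 7, 1 and 0 counts in c-fos, 18, 29 and 5 in mCherry and 68, 16 and 1 in overlap. The 68 were in overlap 1, a library high in insulin transcripts. Of 10 pluripotency genes, with which Hesx1 was first described in embryonic stem cells, 1 was tested. This was Klf4, whose log2 difference for c-fos against mCherry was 1.85 ± 1.53 (adjusted p = 0.883 in edgeR). Pou5f1, below the filter and named here after its values were seen, had 2, 18 and 2 counts in c-fos and 0 in the 6 other libraries, while Nanog had 0 counts in c-fos.

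The genes next to Hesx1 in the genome did not share its pattern. Of the 5 nearest annotated genes on each side, 6 were at 0 counts in every library, Asb14 among them, and 3 passed the filter. Appl1, an endosomal adaptor, had 22, 52 and 34 counts in c-fos, 36, 126 and 16 in mCherry and 2, 22 and 46 in overlap. Il17rd, a membrane protein that damps FGF signalling, had 12, 37 and 8 counts in c-fos, 23, 25 and 3 in mCherry and 1, 13 and 7 in overlap. Dnah12, an axonemal dynein gene, had 4, 30 and 21 counts in c-fos, 0, 17 and 2 in mCherry and 4, 30 and 15 in overlap. Both immediate neighbours thus had counts in all 9 libraries, with log2 differences between c-fos and overlap of 0.68 ± 0.77 for Appl1 and 1.39 ± 1.05 for Il17rd (adjusted p = 0.982 in edgeR for both).

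The genes most like Hesx1 were sought by profile overlap, the percentage shared by the distributions of 2 genes' summed CPM over the 9 libraries. It was computed for 6290 tested protein-coding genes other than predicted ones, and its median was 32.2%. Vmn2r27 was highest, at 93.0%, with 5, 13 and 12 counts in c-fos and 0 in the 6 other libraries. Its c-fos level was 47.4 ± 2.08 CPM (SD, n = 3), on few counts. Olfr155, an olfactory receptor gene, followed at 84.5%, with 8, 21 and 14 counts in c-fos and 2 elsewhere, both in overlap 1. Rcbtb2, an RCC1 repeat protein gene, had 83.4%, with 8, 22 and 26 counts in c-fos and at most 6 in any other library. Rpa2, a subunit of the single-strand DNA binding complex, had 81.1%, and Wnt3, a Wnt ligand, 80.1%, and both were at 0 counts in mCherry and not in overlap. The translation elongation factor gene Eef1a1 had 79.1%, with 239 ± 23.8 CPM in c-fos, 40.0 ± 5.05 in mCherry and 23.1 ± 26.7 in overlap (SD, n = 3). Tpm3-rs7 (76.3%), whose reads may be shared with its parent gene Tpm3, and Churc1 (75.5%), a zinc finger gene, closed the list. The gene ranked next was at 75.5% as well. These genes were picked for likeness to Hesx1, so their differences are not tests of it.

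**Figure D5:**
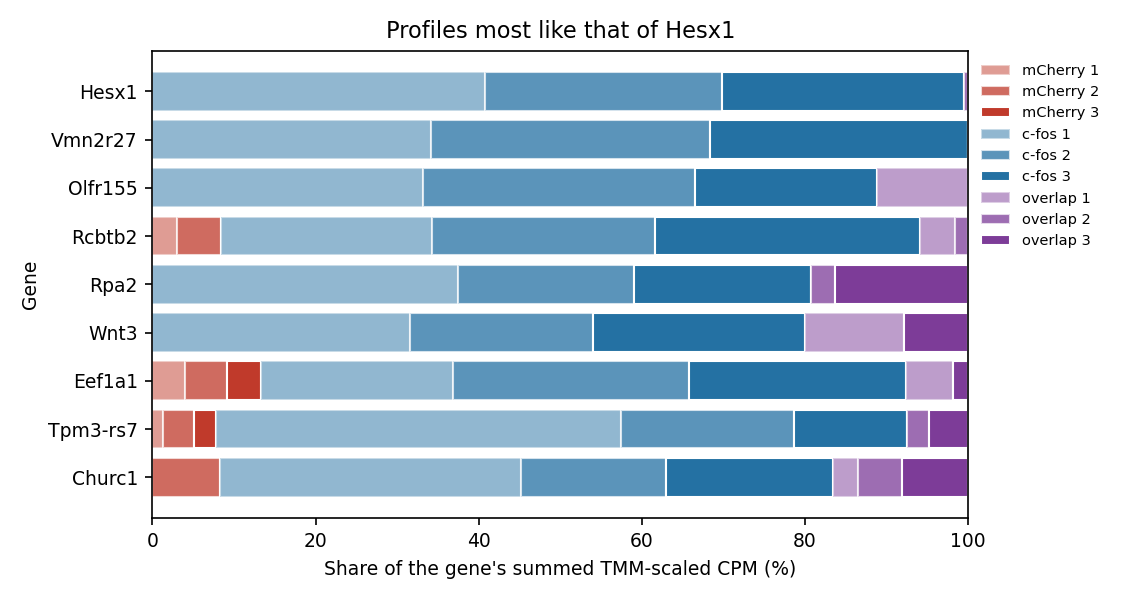
Share (%) of each gene's summed TMM-scaled CPM in the 9 libraries, for Hesx1 and the 8 genes of highest profile overlap with it (blue shades, c-fos; red, mCherry; purple, overlap). The c-fos libraries hold 99.6% for Hesx1, 100% for Vmn2r27 and 75.1% for Churc1, the lowest of the 8.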

How the data were processed

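RNA was measured in 9 libraries of 3 groups, taken from the sample titles, and each of the 9 columns of the table matched 1 title. The values are counts per gene as deposited, whole numbers that were not normalized. The submitters' processing notes name featureCounts, STAR, Trim Galore, UMI-tools and the build mm9, with no order or role. Tool versions, settings, strand and use of molecular identifiers: not given in the sources used here. Of 54838 identifiers, 54723 received a symbol, and the other 115 held 0.222% of counts. The annotation at hand is GRCm38, so gene coordinates are not given apart from the RefSeq promoter window and distances.

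All 9 libraries entered 1 edgeR 4.0.16 fit in R 4.3.3 (TMM, filterByExpr with minimum count 10, quasi-likelihood test, Benjamini-Hochberg adjusted p under 0.05), tested on simulated data. SE derive from the F statistic. DESeq2 1.42.0 was an alternative. Other alternatives were other scalings and filters, the 2 groups of a contrast alone, a replicate block, each library left out, and mCherry 3 and overlap 1 left out.

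Hesx1, the lists, the tests and the naming rule (Otx2, Six3, Tle1, Fos, at most 4 tested genes per list by smallest unadjusted p, and 8 genes of highest profile overlap) were chosen with earlier results of these data known. Genes given with counts outside that rule were named after their values were seen. Some listed genes are not reported here.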

Additional observations from a re-analysis of the deposited data

How the results depend on the processing

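The Hesx1 level of the c-fos and overlap groups stayed within 1 SD of its value under every other scaling tried. That of mCherry is 0 under any scaling. Leaving out 1 of 3 libraries cannot move a group mean by 1 SD, so it could not show a change. Over the 4 scalings the pooled c-fos level was 79.5 to 91.8 times the mCherry floor of 3 counts. The number of genes called depended on the settings, and the cause was not tested. Where Hesx1 is among those called, it is named only to account for the count, since it was chosen on these values. For c-fos against mCherry edgeR called 0 genes. It called 1 (Hesx1) with upper quartile scaling, total count scaling, a minimum count of 20, or without mCherry 3 and overlap 1. It called 253 with no filter, Hesx1 among them, and DESeq2 called 3 (Hesx1, Egr1 and Nipsnap3a). Leaving out single libraries gave 0 to 1, the 1 being Hesx1 without mCherry 3. For c-fos against overlap edgeR called 0. It called 41 with no filter, Hesx1 among them, and 1 (Hesx1) with the 2 groups alone or without mCherry 3 and overlap 1. DESeq2 called 6, Hesx1 among them. Leaving out single libraries gave 0 to 9, with 9 (Hesx1 among them) without mCherry 3 and 1 (Meg3) without mCherry 1. For overlap against mCherry edgeR called 2, the noncoding RNAs Meg3 and Malat1, both lower in overlap. It called 344 with no filter, and DESeq2 called 188. It called 0 with DESeq2 size factors, upper quartile scaling, total count scaling, a minimum count of 20, the 2 groups alone, or without mCherry 3 and overlap 1. Leaving out single libraries gave 2 to 20, with 20 without mCherry 3, 16 without mCherry 1 and 5 without mCherry 2.

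The labels do not say whether replicate numbers pair the samples. Same-numbered libraries' deviations correlated between -0.0284 and 0.0377, and those of different number between -0.0369 and 0.0293. Such values cannot decide whether same-numbered libraries share an animal. With the replicate block edgeR called 0, 3 (Meg3, Chd3 and Jsrp1) and 10 genes in the 3 contrasts. With 1 count allowed elsewhere, a setting added after seeing the data, 1 gene held the c-fos pattern, which was Hesx1, whose own counts set the limits. The log2 difference of Pou1f1, c-fos vs overlap, was -0.81. It ranged from -1.54 to 0.054 with single libraries left out, the highest without overlap 1, and was 0.050 without mCherry 3 and overlap 1. That of Tcf7l1, c-fos vs mCherry, ranged from -9.41 to 0.88 and that of Tcf7l2, c-fos vs mCherry, from -2.92 to 0.98, each highest without mCherry 3, and they were 0.91 and 0.94 without mCherry 3 and overlap 1. By Pearson correlation of log2(CPM + 10), 4 of the 8 genes most like Hesx1 were named again, and without mCherry 3 and overlap 1, also added after seeing the data, 5 were. Depth limits what a 0 can show: in overlap 1 the floor of 3 counts is a Hesx1 level of 39.2 CPM, and the upper Poisson limit is 48.2 CPM.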
